A study of Mus musculus with 3 samples.

Results

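The sites compared here are ChIP-seq peaks of 2 antibodies in NE4C cells, an established mouse neural stem cell line, raised against homocysteinylated lysine 79 of histone H3 (H3K79Hcy) and against homocysteinylated lysine wherever it occurs (KHcy). Every peak of either list that overlapped an H3K4me3 peak by 1 bp or more was removed first. Each remaining peak was called shared where it overlapped the other list by 1 bp or more, and otherwise H3K79Hcy-only or KHcy-only. This left 6249 of 7387 H3K79Hcy peaks, of which 456 were shared and 5793 were H3K79Hcy-only. It left 6094 of 7300 KHcy peaks, of which 445 were shared and 5649 were KHcy-only. The members of each class were thus chosen by the measured positions of the peaks, so the numbers that define the classes are a description and were not tested.

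Homocysteine is an amino acid formed when methionine gives up its methyl group, and its cyclic form, homocysteine thiolactone (HTL), reacts with the side chain of lysine without an enzyme. The adduct removes the positive charge of that side chain and adds a free thiol. Lysine 79 of histone H3 lies on the outer face of the nucleosome, in the globular core and not in the flexible tail, and is best known as the residue that Dot1l methylates in the bodies of transcribed genes. H3K4me3, the third antibody of the experiment, marks the starts of active and poised genes, and its list served here only to take sites at such places out of both lists. A pan-specific antibody can recognise the adduct on any histone or on another chromatin protein, so its sites could in principle include those of the antibody to 1 residue.

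All 3 antibodies were used on chromatin of NE4C cells in culture, for which the labels name no treatment with HTL. There was 1 library per antibody, so no difference between the antibodies could be set against the spread between replicates, no p-value is given, and the intervals below are 95% intervals that cover counting error only (Wilson for shares, exact order statistics for medians). The input and IgG controls are not analysed here. Of the 9 neural stem cell markers found in the annotation, Nes had an H3K4me3 peak over its start and Vim and Msi1 had one within 1000 bp, while Sox2, Pax6, Prom1, Fabp7, Hes1 and Hes5 had neither. For all 22380 protein-coding genes, 5.41% of starts lay under an H3K4me3 peak, and 3034 genes had one within 1000 bp. No H3K79Hcy or KHcy site lay in the body of any of these 9 markers. Of all protein-coding genes, 2605 (11.6%) had any such site, and 9 genes are too few to tell 0 from that share.

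The lists give for each peak its position in mm9, its length in whole windows of 200 bp, the reads in it and a score. The lists do not give the sequencing depth, so reads were set against the background of the library itself, which was 1.59 reads per window for H3K79Hcy and 1.49 for KHcy. The fold of a site below means its reads divided by that background over the same length. All peaks together held 209335 reads for H3K79Hcy and 276864 for KHcy. The weakest peak scored 14.5 for H3K79Hcy and 19.8 for KHcy, so the lists were cut at unlike scores. Width, fold and score are therefore not compared like for like between the lists.

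The sequences at representative sites are shown first, as the central window of 200 bases on the plus strand of mm9, with each CpG in capitals. For each class they come from the 2 sites of highest fold among those at 5-fold or less and outside untranslated exons, with ties broken by score. They thus stand for the upper end of ordinary sites by fold, not by reads, and not for the extremes.
H3K79Hcy-only window at chr1:19855601-19855800: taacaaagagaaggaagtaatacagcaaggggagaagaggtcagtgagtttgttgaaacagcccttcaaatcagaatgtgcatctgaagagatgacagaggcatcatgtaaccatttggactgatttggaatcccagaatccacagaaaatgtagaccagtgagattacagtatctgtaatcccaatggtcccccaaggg
H3K79Hcy-only window at chr10:31056001-31056200: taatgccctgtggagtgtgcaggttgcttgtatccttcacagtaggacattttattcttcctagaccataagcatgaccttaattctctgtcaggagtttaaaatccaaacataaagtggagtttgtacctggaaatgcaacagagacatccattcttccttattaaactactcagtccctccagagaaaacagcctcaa
shared window at chr6:103064601-103064800: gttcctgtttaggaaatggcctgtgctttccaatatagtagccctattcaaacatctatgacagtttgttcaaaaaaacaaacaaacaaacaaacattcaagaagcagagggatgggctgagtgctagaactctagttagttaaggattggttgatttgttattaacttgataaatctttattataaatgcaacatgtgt
shared window at chr1:10789601-10789800: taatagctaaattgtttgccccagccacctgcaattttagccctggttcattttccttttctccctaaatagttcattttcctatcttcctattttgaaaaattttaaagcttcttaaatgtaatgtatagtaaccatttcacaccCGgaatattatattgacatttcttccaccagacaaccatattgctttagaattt
KHcy-only window at chr11:21981201-21981400: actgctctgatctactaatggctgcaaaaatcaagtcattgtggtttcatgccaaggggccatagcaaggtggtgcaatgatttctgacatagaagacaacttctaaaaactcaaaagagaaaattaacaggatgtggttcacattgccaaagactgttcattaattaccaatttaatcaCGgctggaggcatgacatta
KHcy-only window at chr10:7351201-7351400: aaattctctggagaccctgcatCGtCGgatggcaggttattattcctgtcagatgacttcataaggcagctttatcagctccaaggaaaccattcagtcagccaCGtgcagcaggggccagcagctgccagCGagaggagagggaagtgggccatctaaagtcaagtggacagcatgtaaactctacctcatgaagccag
The H3K79Hcy-only window on chromosome 10 lay in an intron of Tpd52l1, and the KHcy-only windows lay in introns of Ehbp1 and Pcmt1. The 3 others lay between genes, 192 kb from Pkhd1, 396 kb from Chl1 and 79.4 kb from Cpa6. None held a 31-base word that occurs elsewhere in the genome. Their CpG counts were 0 and 0 in the H3K79Hcy-only windows, 0 and 1 in the shared windows and 1 and 4 in the KHcy-only windows. Each of the H3K79Hcy sites held 15 reads over 400 bp (4.71-fold), and the KHcy sites held 22 and 21 reads over 600 bp (4.94-fold and 4.71-fold). Picking by fold favoured narrow sites with few reads. The median was 23 reads in H3K79Hcy-only, 25 in shared H3K79Hcy and 32 in KHcy-only sites.

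Few sites coincided between the antibodies. The shared sites were 7.30% of the H3K79Hcy sites (6.68 to 7.97%) and 7.30% of the KHcy sites (6.68 to 7.98%). Among the peaks that had been removed for overlap with H3K4me3, 546 of 1138 H3K79Hcy peaks (48.0%, 45.1 to 50.9%) and 497 of 1206 KHcy peaks (41.2%, 38.5 to 44.0%) overlapped the other list. The share therefore depended on the removal. When no peak was removed it was 13.9% for H3K79Hcy and 12.9% for KHcy. It also depended on how much overlap was asked for. With at least 50% of the peak covered, 5.82% of H3K79Hcy sites but only 3.02% of KHcy sites were shared. Of the H3K79Hcy-only sites, 23 overlapped a KHcy peak that had been removed for H3K4me3, and 3 KHcy-only sites overlapped a removed H3K79Hcy peak.

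The shared sites formed 462 overlapping pairs, since 15 KHcy sites overlapped 2 H3K79Hcy sites, 1 overlapped 3, and 6 H3K79Hcy sites overlapped 2 KHcy sites. The overlap had a median of 800 bp (800 to 1000 bp). It covered a median of 83.3% of the H3K79Hcy site and 41.7% of the KHcy site, and the H3K79Hcy site lay wholly inside the KHcy site in 205 pairs (44.4%). The converse held in 16 pairs (3.46%). The centres of paired sites were a median of 700 bp apart. The fold was higher on the H3K79Hcy side in 363 pairs (78.6%), and across pairs the folds of both sides were weakly related (Spearman's rho 0.20 over 462 pairs, and 0.14 over the 449 pairs at 5-fold or less on both sides). Pairs share a position and the base composition that goes with it, and the lists were cut at unlike scores, so this is a description.

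At the limit between the classes, 44 H3K79Hcy sites were shared by no more than 1 window of 200 bp and had a median of 2.63-fold. Another 36 touched a KHcy site without overlapping it, with a median of 2.79-fold, and 31 stopped 200 bp short of one, with a median of 2.69-fold. On the KHcy side the corresponding groups held 44, 33 and 32 sites, with medians of 2.29-fold, 2.24-fold and 2.27-fold. Sites just inside and just outside the limit were thus of like height.

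The H3K79Hcy-only sites had a median width of 1200 bp (1000 to 1200 bp), with 23 reads and 2.64-fold. The shared H3K79Hcy sites had a median width of 1200 bp, with 25 reads and 2.70-fold (2.64 to 2.76). The KHcy-only sites were wider and lower, with a median width of 2000 bp, 32 reads and 2.22-fold (2.22 to 2.24). The 2 lists were cut at unlike scores, and in either list fold was generally lower in wider sites. The shared KHcy sites had a median width of 2000 bp (2000 to 2200 bp), with 35 reads and 2.26-fold (2.23 to 2.30). The difference in median fold between shared and unshared sites was 0.063 for H3K79Hcy (0 to 0.126) and 0.043 for KHcy (-0.014 to 0.079). It was larger when no peak was removed for H3K4me3, at 0.424 and 0.330, and at 0.163 for KHcy when 50% of the peak had to be covered, where the shared KHcy sites also differed by -200 bp in median width. Per window of 200 bp, the medians were 4.20 reads in H3K79Hcy-only, 4.30 in shared H3K79Hcy, 3.36 in shared KHcy and 3.30 in KHcy-only sites. In all, the H3K79Hcy-only sites covered 6.55 Mb and the KHcy-only sites 11.5 Mb.

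Shared sites ranked higher by the authors' score than unshared sites. Wider sites held more reads and have more room to overlap, and the score was not compared within a width class. The median score was 16.7 in H3K79Hcy-only and 18.1 (17.9 to 18.5) in shared H3K79Hcy sites. It was 23.0 in KHcy-only and 25.5 (24.5 to 26.0) in shared KHcy sites. A stricter limit, 100 times less likely under the score than the weakest peak of the list, was passed by 24.9% of H3K79Hcy-only sites and 41.9% (37.4 to 46.5%) of shared H3K79Hcy sites. On the KHcy side it was passed by 35.6% of KHcy-only and 55.7% (51.1 to 60.3%) of shared sites. When this limit was applied to all 3 lists before the classes were made, 123 shared and 1577 H3K79Hcy-only sites remained, beside 121 shared and 2228 KHcy-only sites.

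The widest sites were shared most often. Of the H3K79Hcy sites of 200 to 600 bp, 38 of 642 were shared (5.92%), compared with 82 of 820 (10%) at 1600 to 2000 bp and 24 of 104 (23.1%, 16.03 to 32.05%) at 2200 to 2800 bp. For KHcy the share was 9.38% (6.01 to 14.3%) at 800 to 1000 bp, 6.31% at 1200 to 1400 bp, 5.99% at 1600 to 2000 bp, 6.84% at 2200 to 2800 bp and 15.6% (12.7 to 19.1%) at 3000 bp or more. A wider peak has more room to overlap another, so a higher share among wide sites is built into the definition. Within a width class, the median of shared sites was equal to or above that of unshared sites wherever at least 20 shared sites were present. At 1600 to 2000 bp the median was 2.43-fold (2.39 to 2.51) in shared and 2.28-fold in H3K79Hcy-only sites. At 800 to 1000 bp it was 2.89-fold in both. For KHcy it was 2.11-fold (2.06 to 2.16) in shared and 1.98-fold (1.94 to 2.02) in KHcy-only sites of 3000 bp or more.

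**Figure D1:**
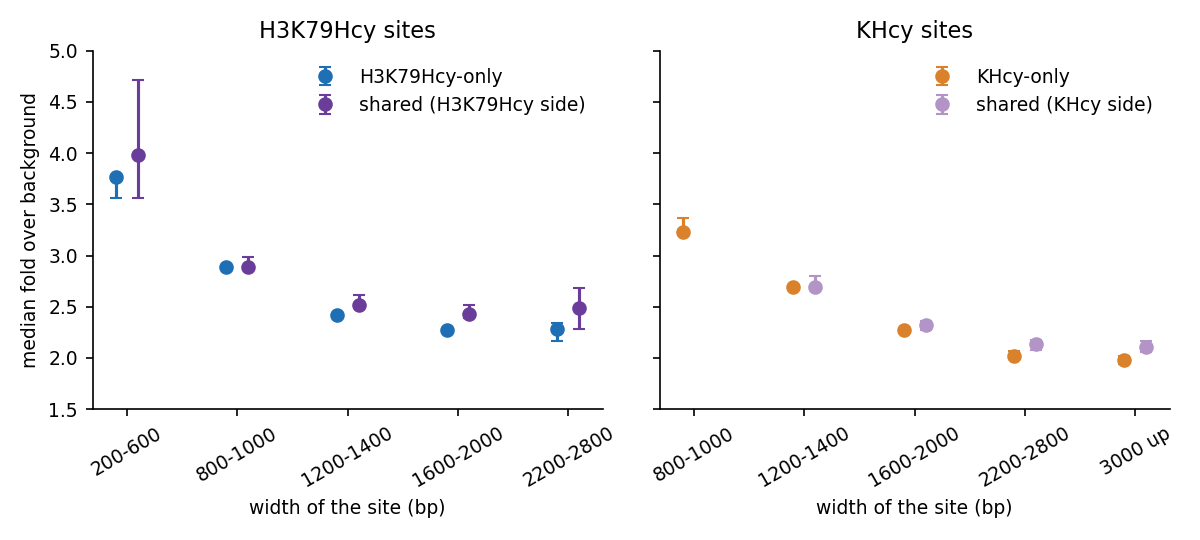
Median fold over the background of the library (y axis, dot plot that starts at 1.5) by width of the site in bp (x axis), for H3K79Hcy sites on the left and KHcy sites on the right, each split into shared sites and sites of 1 list only. Bars are 95% order-statistic intervals. Fold is lower at 1600 to 2000 bp than at 800 to 1000 bp in both lists, and shared sites stand above the others at 1600 to 2000 bp for H3K79Hcy (2.43-fold against 2.28-fold).

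Although sites seldom coincided, they lay in the same parts of the genome. The 5 chromosomes with the most sites (1, 6, 2, 5 and 3) hold 32.1% of the genome. They held 63.6% (62.4 to 64.9%) of the H3K79Hcy-only, 62.7% (61.5 to 63.99%) of the KHcy-only and 71.5% (67.2 to 75.4%) of the shared H3K79Hcy sites. Chromosomes 1 and 6 alone, with 13.2% of the genome, held 33.5% of the H3K79Hcy-only, 33.5% of the KHcy-only and 50.4% (45.9 to 55.0%) of the shared sites. The shared H3K79Hcy sites did not spread over the whole of these chromosomes. Most of those on chromosome 1 lay between chr1:3255201 and chr1:36491400, and all of those on chromosome 6 began at chr6:91490601 or beyond. Unshared sites were also many there, with 31 H3K79Hcy-only and 32 KHcy-only in chr1:11000001-12000000 and 37 and 18 in chr6:141000001-142000000. Whether shared sites were more confined than unshared sites was not measured. At the other end, chromosomes 7, 12, 13, 14, 16, 18, X and Y make up 33.0% of the genome and held 93 H3K79Hcy-only, 75 KHcy-only and 7 shared H3K79Hcy sites. Over 20 chromosomes the densities of H3K79Hcy-only and KHcy-only sites had a Spearman's rho of 0.96. Both libraries come from the same cells, so the points share copy number, mappability and base composition, whose part in this was not tested.

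**Figure D2:**
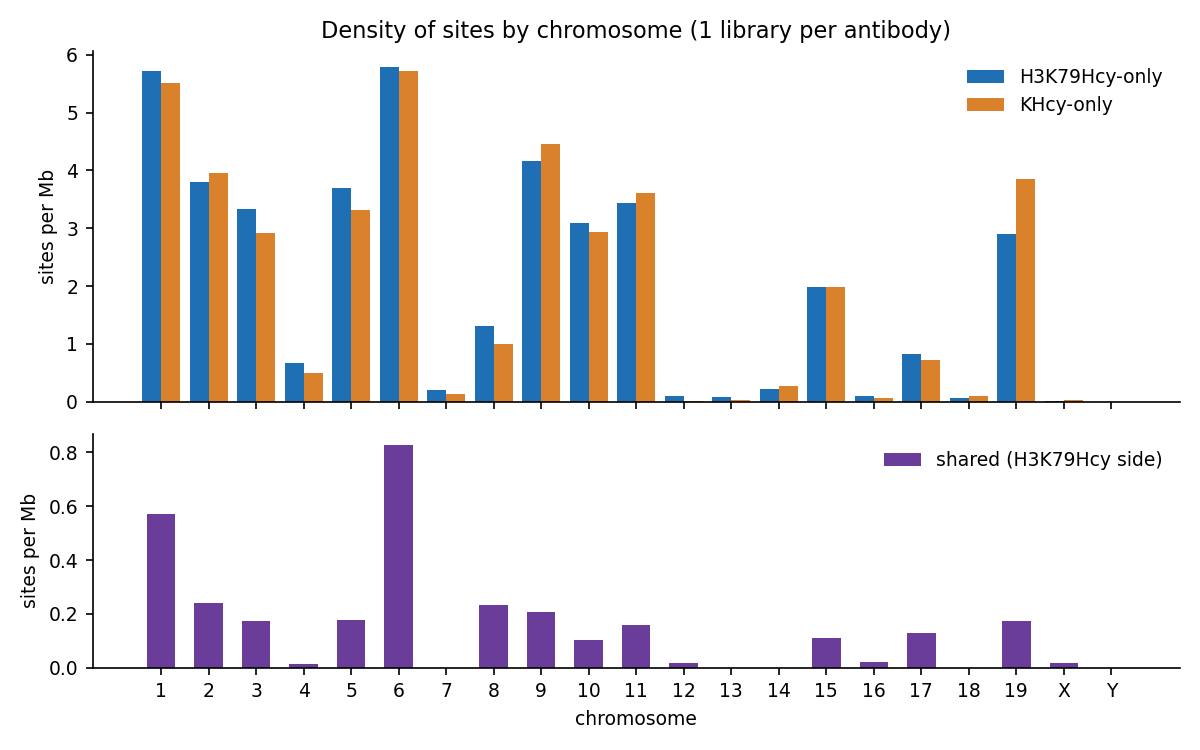
Sites per Mb on each nuclear chromosome (y axis, linear, from 0), with H3K79Hcy-only and KHcy-only sites in the upper panel and shared H3K79Hcy sites in the lower panel. Chromosome 6 has 5.78 H3K79Hcy-only and 5.73 KHcy-only sites per Mb, while chromosome 18 has 0.057 and 0.091.

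Of the sites of both lists together, 50.6% (49.7 to 51.5%) were H3K79Hcy sites, and on 2 of the 21 chromosomes with any site the interval left that share out. Chromosome 19 carried 179 H3K79Hcy sites beside 234 KHcy sites (43.3%, 38.6 to 48.2%). Chromosome 12 carried 14 beside 4 (77.8%, 54.8 to 91.0%), so its share rested on few sites. On the other chromosomes the intervals held the share of the whole lists, as on chromosome 1 with 1203 and 1164 sites and on chromosome 3 with 549 and 484 (53.1%, 50.1 to 56.2%). The percent of H3K79Hcy sites that were shared also varied. It was 12.5% (10.6 to 14.7%) on chromosome 6, 9.06% (7.57 to 10.8%) on chromosome 1, 5.96% on chromosome 2, 4.54% on chromosome 5 and 3.20% (1.88 to 5.40%) on chromosome 10. Among chromosomes with fewer sites it was 15.1% (10.7 to 20.9%) on chromosome 8, 13.6% (7.98 to 22.3%) on chromosome 17 and 1.92% (0.529 to 6.74%) on chromosome 4. Of the 29 shared H3K79Hcy sites of chromosome 8, 23 began within 3 adjoining bins of 1 Mb, with 9 in chr8:113000001-114000000, 10 in chr8:114000001-115000000 and 4 in chr8:115000001-116000000. The first of these bins contains Glg1. Unshared sites were many there too, with 25 H3K79Hcy-only sites in the second bin and 29 in the third, of 163 on the chromosome.

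Divided into 1 Mb bins, 1257 of 2649 bins held an H3K79Hcy-only site, 1187 held a KHcy-only site and 1027 held both. Bins with a KHcy-only site were 44.8% of all bins and contained 93.6% of the H3K79Hcy-only sites. Conversely, the bins with an H3K79Hcy-only site (47.5%) contained 95.3% of the KHcy-only sites. The counts per bin had a Spearman's rho of 0.81. Nonetheless single bins leaned to either side. On chromosome 6, the bin chr6:141000001-142000000 held 37 H3K79Hcy-only and 18 KHcy-only sites, while the bin chr6:120000001-121000000, which contains Cecr2 and Kdm5a, held 13 and 29. On chromosome 8, the bin chr8:115000001-116000000, which contains Cntnap4, held 29 and 13. The bin chr6:109000001-110000000 held 15 and 2, and the bin chr19:37000001-38000000 held 4 and 17. These bins were picked for their size or their difference, which is therefore no independent evidence of a lean.

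The nearest KHcy site was a median of 44.6 kb (42.2 to 47.4 kb) away from an H3K79Hcy-only site, and the nearest H3K79Hcy site 42.8 kb (40.8 to 45.4 kb) from a KHcy-only site. These gaps were close to those within a list, where the next site was a median of 40.0 kb (37.6 to 42.0 kb) away for H3K79Hcy and 36.0 kb (34.0 to 37.4 kb) for KHcy. Within 1000 bp of the other list lay 182 H3K79Hcy-only sites (3.14%) and 172 KHcy-only sites (3.04%). Within 100 kb lay 67.4% and 71.1%.

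**Figure D3:**
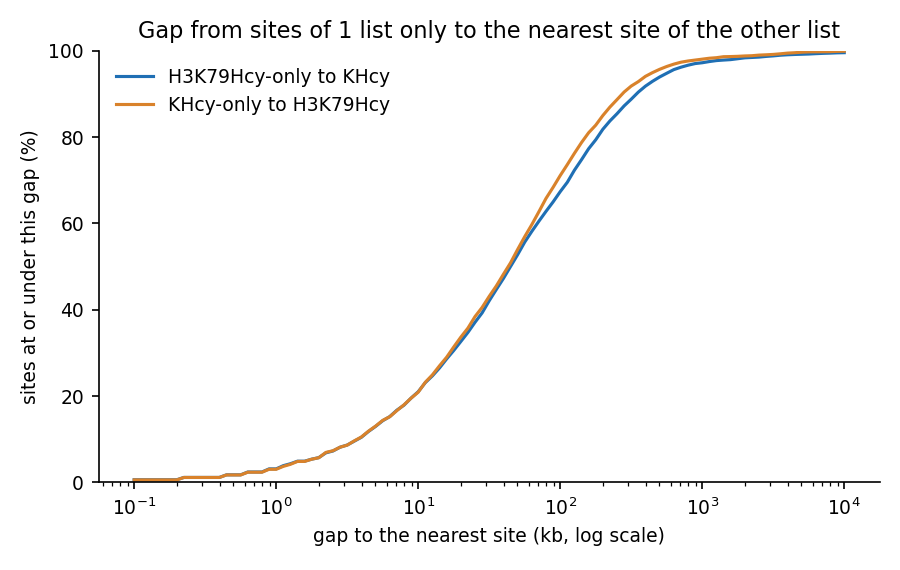
Percent of H3K79Hcy-only and KHcy-only sites (y axis) whose nearest site of the other list lies at or under a given gap (x axis, kb, log scale). The curves run together up to the medians of 44.6 and 42.8 kb and part slightly above, with 67.4% and 71.1% at 100 kb.

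The lists also differed in where their sites lay relative to genes. The centre of a site was assigned to a promoter (2000 bp before a gene start), an exon, an intron, the 1000 bp after a gene or the space between genes. Centres in exons made up 3.26% (2.84 to 3.75%) of H3K79Hcy-only sites, near the 2.92% of genome bases that are exonic. They made up 5.08% (4.54 to 5.68%) of KHcy-only sites and 7.02% (5.01 to 9.74%) of shared H3K79Hcy sites. Centres between genes made up 56.9% (55.6 to 58.2%) of H3K79Hcy-only, 49.7% (48.4 to 51.0%) of KHcy-only and 48.5% (43.9 to 53.1%) of shared H3K79Hcy sites, compared with 59.2% of the genome. Introns held 38.0%, 42.8% and 42.3%, respectively, compared with 35.5% of the genome. The intervals of H3K79Hcy-only and KHcy-only sites did not overlap for exons, introns or the space between genes. These intervals cover counting error only. There were no replicates and the lists were cut at unlike scores. The difference therefore describes these lists and cannot be assigned to the antibodies.

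Promoters held few sites of any class, 58 H3K79Hcy-only (1.00%, 0.775 to 1.29%), 74 KHcy-only (1.31%, 1.04 to 1.64%) and 6 shared H3K79Hcy sites (1.32%, 0.604 to 2.84%), compared with 1.71% of the genome. Peaks at H3K4me3 had been removed beforehand, which by construction takes out sites at marked promoters. At least 1 base of coding sequence was overlapped by 9.84% of H3K79Hcy-only and 20.2% of shared H3K79Hcy sites, and by 18.2% of KHcy-only and 24.3% of shared KHcy sites. This count, unlike the centres, also grows with width.

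**Figure D4:**
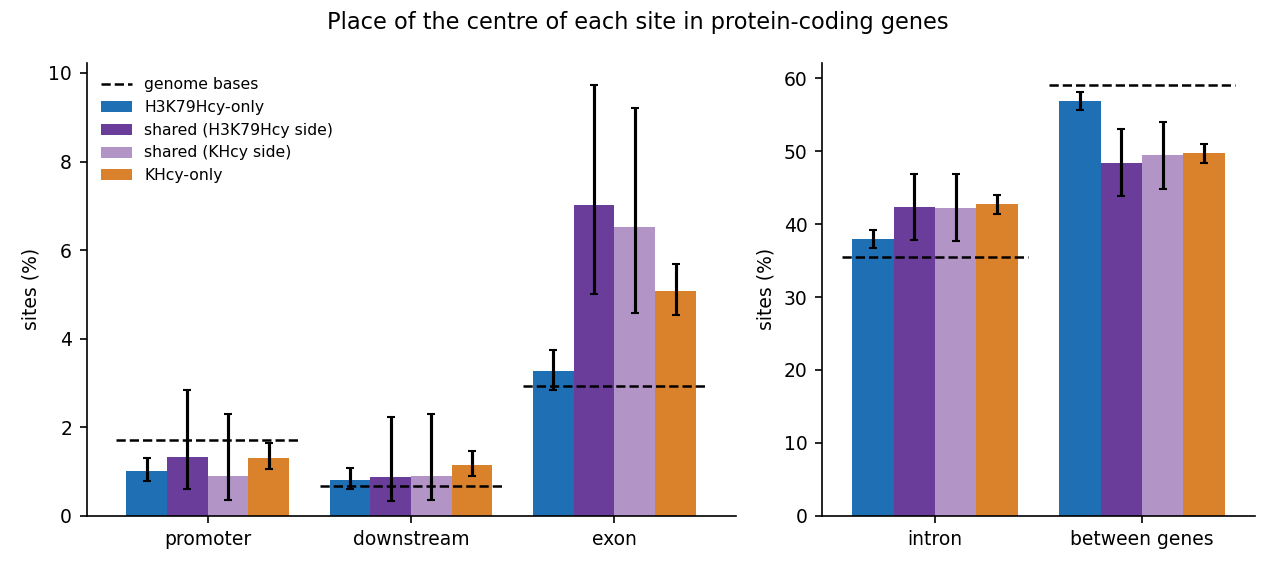
Percent of sites of each class (y axes, from 0) whose centre lies in a promoter, downstream of a gene, in an exon, in an intron or between genes. Bars end at the share with its 95% Wilson interval, and dashed lines give the share of genome bases. Exons hold 3.26% of H3K79Hcy-only, 7.02% of shared H3K79Hcy and 5.08% of KHcy-only centres.

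Gene bodies were cut into 10 equal parts from the start to the end of the gene. The part at the start held 7.25% of the H3K79Hcy-only and 7.33% of the KHcy-only centres inside genes, and the part at the end held 10.9% and 11.2%. Of the 219 shared H3K79Hcy sites inside genes, 15 lay in the part at the start and 33 in the part at the end. Peaks at H3K4me3, which marks gene starts, had been removed, so fewer sites at the start are partly built in. The parts were not counted without that removal.

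In the central window, the median GC content was 40.0% (39.5 to 40.0%) in H3K79Hcy-only, 39.5% (39.0 to 40.5%) in shared H3K79Hcy, and 40.5% (40.5 to 41.0%) in KHcy-only sites, all under the 41.5% of the windows of the genome. The mean number of CpG per window was 1.33 in H3K79Hcy-only, 1.21 in shared H3K79Hcy and 1.54 in KHcy-only sites, compared with 1.66 in the genome. No CpG was found in 35.1% (33.9 to 36.3%) of H3K79Hcy-only, 39.9% (35.5 to 44.5%) of shared H3K79Hcy and 32.1% (30.9 to 33.4%) of KHcy-only windows, compared with 30.7% of the genome. Over the whole site, the difference in median GC content, H3K79Hcy-only minus KHcy-only, was -0.57 percentage points (-0.85 to -0.208). Windows in which over 50% of the 31-base words occur more than once in the genome were 1.74% of H3K79Hcy-only, 2.19% of shared H3K79Hcy and 1.505% of KHcy-only windows, with overlapping intervals.

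Of the 22380 protein-coding genes, 1508 (6.74%) had an H3K79Hcy-only site in their body, 1749 (7.82%) a KHcy-only site and 184 (0.822%) a shared site. Both kinds of unshared site were found in 698 genes, which is 46.3% of the genes with an H3K79Hcy-only site and 39.9% of those with a KHcy-only site. Another 792 genes had H3K79Hcy-only sites alone and 1023 had KHcy-only sites alone. All 3 kinds were present in 92 genes. Long genes offer more room, and the median length was 79.5 kb, 70.5 kb and 79.2 kb in genes with an H3K79Hcy-only, KHcy-only and shared site, compared with 15.4 kb for all genes. Among genes of 200 kb or more, 34% had an H3K79Hcy-only site, 32.9% a KHcy-only site and 4.4% a shared site. Among genes under 20 kb, the shares were 1.27% (1.09 to 1.48%), 1.97% (1.75 to 2.23%) and 0.237%. By this count KHcy-only sites were the more frequent kind in short genes, and in the longest genes the intervals of both kinds overlapped. A gene counted where a site overlapped it by 1 bp or more, so the wider KHcy-only sites had more room to reach a gene. By the centre of the site, 1468 of all genes had an H3K79Hcy-only and 1652 a KHcy-only site.

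Ion channel genes and genes of synaptic adhesion, which are long, were the lists with the largest shares. Of the 55 ion channel and transmitter receptor genes, which set the electrical response of neurons, 28 (50.9%, 38.1 to 63.6%) had an H3K79Hcy-only site, 19 (34.5%, 23.4 to 47.7%) a KHcy-only site and 6 a shared site. The median length of these genes was 374 kb. Among their 38 genes of 200 kb or more the counts were 22 (57.9%, 42.2 to 72.1%), 15 (39.5%, 25.6 to 55.3%) and 5, beside 34%, 32.9% and 4.4% of all such genes. Of the 52 genes of synaptic and neuronal adhesion, which join pre- and postsynaptic membranes, 24 (46.2%) had an H3K79Hcy-only and 19 (36.5%) a KHcy-only site, with 95 and 52 sites in all, and 3 had a shared site. Their median length was 773 kb, and of their 44 genes of 200 kb or more, 22 (50%, 35.8 to 64.2%) and 18 (40.9%, 27.7 to 55.6%) had such sites. Of the 48 axon guidance genes, whose products steer growing axons, 10 had an H3K79Hcy-only site and 4 a KHcy-only site, with 13 and 6 sites, and 0 had a shared site. Their median length was 154 kb, and of their 19 genes of 200 kb or more, 7 (36.8%, 19.1 to 59.0%) and 4 (21.1%, 8.51 to 43.3%) had such sites. These wide intervals held the shares of all long genes, 34% and 32.9%. The intervals for the antibodies overlapped in each of these lists.

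Of the 51 chromatin regulators, with a median length of 80.7 kb, 14 (27.5%, 17.1 to 40.9%) had an H3K79Hcy-only and 15 (29.4%, 18.7 to 43.0%) a KHcy-only site. Their 25 H3K79Hcy-only sites stood beside 42 KHcy-only sites, of which 8 lay in Cecr2 and 5 in Tet1. Of the 36 genes needed for neural tube closure, the folding of the neural plate into a tube, 10 (27.8%, 15.8 to 44.0%) had an H3K79Hcy-only and 9 (25%, 13.8 to 41.1%) a KHcy-only site, with 20 and 21 sites and a median length of 63.2 kb. Of all genes of 50 to 100 kb, 14.5% (13.2 to 15.96%) had an H3K79Hcy-only and 17.0% (15.6 to 18.6%) a KHcy-only site. Some genes of both lists are longer than that range, and Cecr2 belongs to both. Cecr2 and Smarca4, which count in the neural tube closure list, were picked by the study for their H3K79Hcy peaks. Of the 37 neural stem and forebrain identity genes, with a median length of 26.1 kb, 5 (13.5%, 5.91 to 27.98%) and 3 (8.11%, 2.79 to 21.3%) had such sites, and 15 of the 20 H3K79Hcy-only sites of that list lay in Sox5. Of the 27 genes of homocysteine, methionine and folate metabolism, with a median length of 21.1 kb, 2 (7.41%) had an H3K79Hcy-only site and 3 (11.1%) a KHcy-only site. The shares of all genes of 20 to 50 kb, 7.32% and 8.61%, lay within the intervals of both of these lists.

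Lists of short genes are set beside all genes under 20 kb, of which 1.27% had an H3K79Hcy-only and 1.97% a KHcy-only site. The median length was 0.963 kb for olfactory receptor, 1.08 kb for vomeronasal receptor and 3.24 kb for ribosomal protein genes. Genes under 20 kb are therefore not matched to these lists in length. Among 1087 olfactory receptor genes, which are best known from the nose and lie in large clusters, the counts were 10 (0.920%, 0.5005 to 1.69%) and 15 (1.38%, 0.838 to 2.26%). Among 319 vomeronasal receptor genes they were 5 (1.57%, 0.671 to 3.62%) and 4 (1.25%, 0.489 to 3.18%). Among 79 cytosolic ribosomal protein genes, 0 had an H3K79Hcy-only site (upper Wilson bound 4.64%) and 3 had a KHcy-only site (3.797%, 1.30 to 10.6%). The share of all short genes lay within the interval of each of these lists for either antibody. The receptors have close copies, and reads could be split between them.

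**Figure D5:**
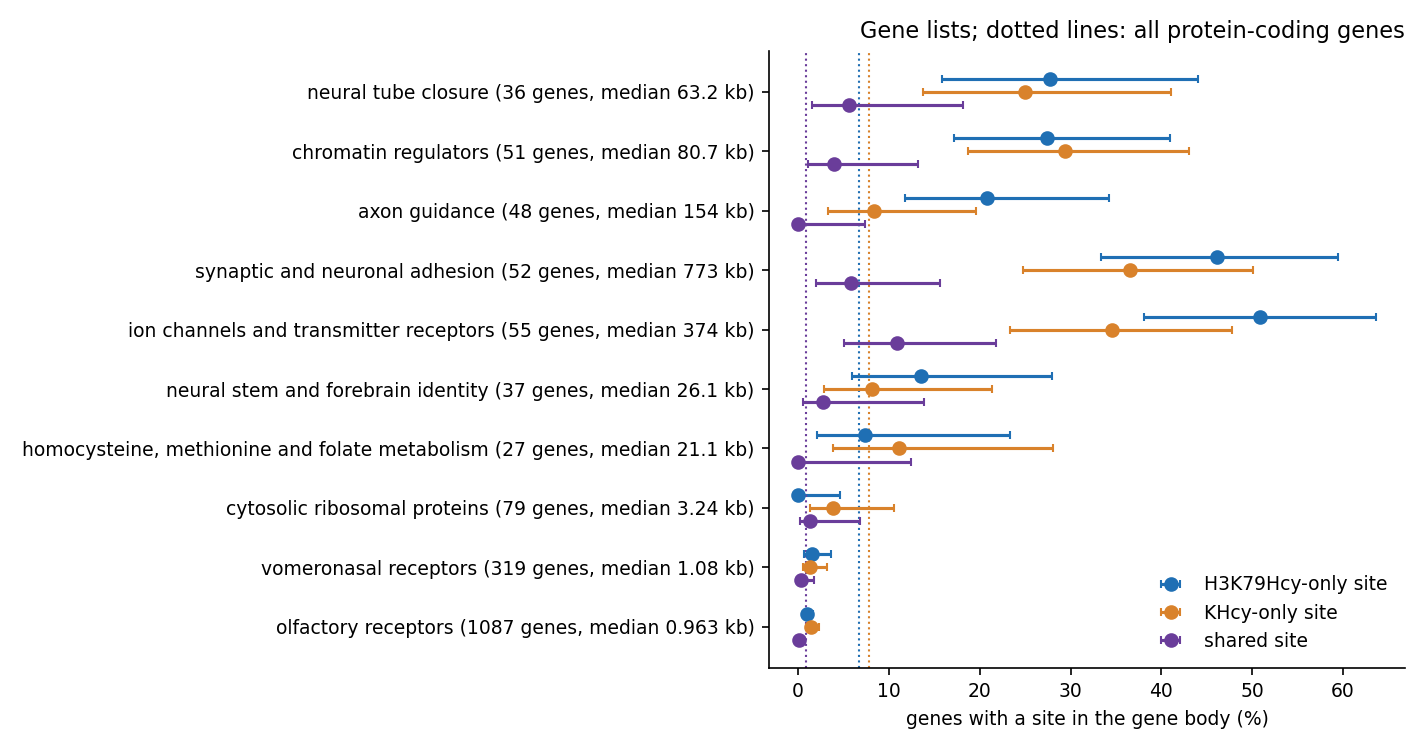
Percent of the genes of each list with an H3K79Hcy-only, KHcy-only or shared site in the gene body (x axis), with 95% Wilson intervals. Dotted lines give all protein-coding genes (6.74%, 7.82% and 0.822%), and the median gene length of the list stands beside its name, since long genes have more sites. Ion channel genes reach 50.9% for H3K79Hcy-only and 34.5% for KHcy-only sites.

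Cecr2, a chromatin remodelling factor whose loss leaves the neural tube open in mice, is given as an example of a gene with sites of both antibodies. It lies at chr6:120616387-120721208 and held 4 H3K79Hcy-only, 8 KHcy-only and 1 shared site on either side. The shared H3K79Hcy site at chr6:120628801-120630200 had 24 reads (2.15-fold), and its KHcy partner at chr6:120629001-120630800 had 29 reads (2.17-fold). The H3K79Hcy-only sites began at 120675601, 120680201, 120694201 and 120698201, with 19, 17, 23 and 21 reads and 2.98-, 3.56-, 3.61- and 2.64-fold. Their gaps to the nearest KHcy site were 1.00, 3.20, 0.60 and 4.60 kb. The gene held 8.59 KHcy sites per 100 kb, and short gaps go with that density. The KHcy-only sites had 26 to 45 reads and 2.16- to 2.60-fold. The central windows of the shared site and of the highest H3K79Hcy-only and KHcy-only sites of the gene are given in the same form as above.
shared window at chr6:120629401-120629600: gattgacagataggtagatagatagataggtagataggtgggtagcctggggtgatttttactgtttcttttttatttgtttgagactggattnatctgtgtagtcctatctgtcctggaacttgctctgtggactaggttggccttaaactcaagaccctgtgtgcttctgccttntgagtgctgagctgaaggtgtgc
H3K79Hcy-only window at chr6:120694601-120694800: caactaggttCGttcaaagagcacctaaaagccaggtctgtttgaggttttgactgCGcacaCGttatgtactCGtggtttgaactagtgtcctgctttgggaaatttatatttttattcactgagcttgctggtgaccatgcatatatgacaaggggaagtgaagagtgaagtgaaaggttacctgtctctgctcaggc
KHcy-only window at chr6:120684601-120684800: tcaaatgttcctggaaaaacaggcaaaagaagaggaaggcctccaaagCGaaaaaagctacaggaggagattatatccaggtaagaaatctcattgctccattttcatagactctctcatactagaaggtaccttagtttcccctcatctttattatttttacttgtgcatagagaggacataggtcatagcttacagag
These windows held 0, 4 and 1 CpG. The letter n marks 2 bases that the genome leaves unresolved, and the KHcy-only site overlapped an exon while the others were intronic.

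Of the other genes that the study singled out, Smarca4, the motor subunit of the SWI/SNF remodelling complex, had 1 H3K79Hcy-only site (21 reads, 3.30-fold) and 3 KHcy-only sites (29 to 31 reads, 2.09- to 2.44-fold), 7.40 kb apart at the nearest. Dnmt3b, a DNA methyltransferase that sets new methylation, had 1 H3K79Hcy-only site (17 reads, 3.56-fold) and 1 KHcy-only site (58 reads, 2.17-fold), which were 14.8 kb apart. Smurf2, a ubiquitin ligase of the TGF-beta pathway, had 1 H3K79Hcy-only site (27 reads, 2.42-fold), 3 KHcy-only sites (29 to 38 reads) and 1 shared pair at its 3′ end (28 reads, 2.93-fold, and 27 reads, 2.27-fold). Except for the shared pairs of Cecr2 and Smurf2, no site of 1 antibody in these genes overlapped a site of the other. The study picked Cecr2, Smarca4 and Dnmt3b because they were among its genes with H3K79Hcy peaks, and showed Smurf2 for its peaks. That these genes hold an H3K79Hcy site was therefore given in advance.

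The genes with the most H3K79Hcy-only sites were long and lay mostly on chromosome 1. Sntg1, a syntrophin of neurons, had 25 H3K79Hcy-only and 16 KHcy-only sites over 938 kb. Kcnq5, a potassium channel subunit, had 17 and 8, A830018L16Rik 16 and 21, and Bai3, an adhesion receptor, 16 and 10. Cntnap4, a neurexin-like adhesion protein on chromosome 8, had 15 and 5, and Pkhd1, the fibrocystin gene, 15 and 9. The genes richest in KHcy-only sites included Cpa6, a carboxypeptidase (17, beside 11 H3K79Hcy-only), Frmd4b (16 beside 5), Dst, which encodes the cytoskeletal linker dystonin (13 beside 5), and Fam19a1 (13 beside 6). In Cntnap4 the H3K79Hcy-only sites ranged from 1.70- to 3.14-fold, and in Frmd4b the KHcy-only sites from 1.75- to 2.92-fold.

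Shared sites were counted on the H3K79Hcy side. Dnahc8, an axonemal dynein heavy chain, held 8 shared H3K79Hcy sites beside 8 H3K79Hcy-only and 4 KHcy-only sites, and a further 5 H3K79Hcy and 12 KHcy peaks there had been removed for H3K4me3. St18, a zinc finger transcription factor, held 8 shared, 8 H3K79Hcy-only and 12 KHcy-only sites. Glg1 and Kdm5a, which encodes a demethylase of H3K4, held 6 shared sites each, Cpa6 held 5 and Clec4a2, a lectin receptor of immune cells, held 4. Per 100 kb, Kdm5a held 11.2 H3K79Hcy and 13.7 KHcy sites, and Dnahc8 held 6.38 and 3.99.

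The members with the most sites in their lists are given for both antibodies, H3K79Hcy-only first. Grm7, a metabotropic glutamate receptor, had 13 H3K79Hcy-only, 11 KHcy-only and 2 shared sites, and Gabrb1, a GABA receptor subunit, had 10, 7 and 3. Kcnb2, another potassium channel subunit, had 8, 9 and 3. Cntn4 had 13 and 11 unshared sites, Cntn3 had 5 and 2, and Odz2, a teneurin, had 12 and 7. In the neural stem list, Sox5 had 15 and 10. Lrp2 and Cobl, both of the neural tube closure list, had 4 H3K79Hcy-only and 2 KHcy-only sites each. Tet1, which oxidises methylated cytosine, had no H3K79Hcy site and 5 KHcy-only sites (23 to 46 reads), and Mthfd1l, a mitochondrial folate enzyme, had 1 and 5. Baz2b, a bromodomain protein, had 3 and 4, and Bptf, the largest subunit of the NURF remodeller, 3 and 2. Among axon guidance genes, Ntng1 had 0 and 3, Unc5c 3 and 1, and Epha5 and Ephb1 had 1 site of each antibody. Blmh, the hydrolase that also breaks down HTL, had 1 site of each antibody, with 22 reads (2.76-fold) and 27 reads (2.27-fold).

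Sites of very high fold were few and were more often shared. Over 5-fold were 32 of 5793 H3K79Hcy-only sites (0.552%, 0.392 to 0.779%) and 11 of 456 shared H3K79Hcy sites (2.41%, 1.35 to 4.27%). For KHcy the counts were 6 of 5649 KHcy-only (0.106%) and 9 of 445 shared sites (2.02%, 1.07 to 3.799%). The highest shared sites were on the mitochondrial genome, which has no histones. Each list had 2 peaks there, all shared. They spanned chrM:1-6600 in both lists, with 777 H3K79Hcy reads (14.8-fold) and 744 KHcy reads (15.2-fold), and chrM:11001-16200 for H3K79Hcy (745 reads, 17.99-fold) and chrM:10801-16200 for KHcy (693 reads, 17.3-fold). Mitochondrial DNA is present in many copies per cell, and the number of copies was not measured here. The central window of the highest shared H3K79Hcy site, in mm9 and on the plus strand, is given for reference.
shared window at chrM:13601-13800: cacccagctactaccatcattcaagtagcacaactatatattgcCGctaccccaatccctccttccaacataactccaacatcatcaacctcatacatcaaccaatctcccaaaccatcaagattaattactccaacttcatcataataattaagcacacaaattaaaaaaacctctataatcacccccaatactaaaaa

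The next highest shared site lay in Emp2, a membrane protein gene on chromosome 16, where sites of either list are rare. At chr16:10284401-10284800, both lists had a site with the same limits, with 26 H3K79Hcy reads (8.16-fold) and 42 KHcy reads (14.1-fold). At chr16:10285401-10285800 they again had the same limits, with 17 reads (5.34-fold) and 41 reads (13.8-fold). A KHcy-only site followed at chr16:10288001-10288400 with 27 reads (9.09-fold). Exons cover 10.7% of the Emp2 gene but 77.0%, 36.8% and 26.5% of these sites. In Fasl, the gene of Fas ligand on chromosome 1, a shared site at chr1:163711601-163712600 had 75 KHcy reads (10.1-fold), 50.1% of it exonic. Its H3K79Hcy partner at chr1:163711601-163712000 had 19 reads (5.97-fold) and was wholly exonic. A KHcy-only site of 54 reads (6.06-fold) covered the other end of the gene, with 46.0% of it exonic, while exons cover 24.8% of Fasl. In both genes KHcy was the higher, unlike in most pairs.

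The highest KHcy-only site was a lone one at chr17:4626201-4626600, between genes, with 53 reads (17.8-fold), and the nearest H3K79Hcy site was 425 kb away. The highest H3K79Hcy-only sites were all of 1 window and rested on 12 or 13 reads (7.54- or 8.16-fold), all of them between genes. Of the 5 highest KHcy-only sites, those in Emp2 and Fasl overlapped exons, and the others lay between genes or, in Birc6, in an intron.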

How the data were processed

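ChIP-seq peak lists of NE4C cells were analysed, with 1 library per antibody. According to the study's methods the authors used Bowtie 2 for alignment to mm9, MACS for peak calling (1.4.2 in the submitters' processing notes) and a control input as a filter, whereas a figure legend names SICER. The control columns of the lists hold no values. The authors deposited the count of reads in each peak, not normalized, as well as a score. In peaks only 1 window (200 bp) long, this score is the Poisson probability of the reads on a negative natural log scale.

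The background was solved from those scores (27 peaks for H3K79Hcy, 8 for KHcy), and fold was computed from it. Genes are the 22380 protein-coding genes of GENCODE M1 on NCBIM37, the same build as mm9. Sox1 was not found there. The members, the 10 gene lists and the alternatives were chosen with earlier results of these data known. Named genes are Cecr2, Smarca4, Dnmt3b and Smurf2, the 6 genes with the most sites per class, up to 4 members with the most sites per list, and the 5 sites of highest fold per class. The named bins of 1 Mb, the windows of Cecr2 further peaks in Emp2 and Fasl, and the bins of chromosome 8 were picked after their values were seen. The planned choice of sequences outside repeats could not be applied, as the genome is not repeat-masked. Alternatives were the required overlap, a gap of 1000 bp, a stricter score, the H3K4me3 removal, sites over 5-fold, chromosome 1 and the centre of the site. Overlap functions were tested on simulated data, with 0 differences from a direct count for 3000 peaks per list. Python 3.11.15, numpy 2.4.6, pandas 2.3.3, scipy 1.17.1 and pysam 0.24.0 were used.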

Additional observations from a re-analysis of the deposited data

How the results depend on the processing

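Among the values recomputed under the alternatives, 89 stayed within the interval of the reported value or within 1.5 times the reported count, 26 moved and 0 called values reversed. The difference in median GC between shared and H3K79Hcy-only sites, whose interval includes 0, changed sign from -0.35 to 0.167 percentage points with no removal for H3K4me3. With at least 50% of the peak covered, 184 KHcy sites (3.02%) and 5.82% of H3K79Hcy sites were shared, and shared KHcy sites were narrower by a median difference of -200 bp and higher by 0.163-fold than KHcy-only sites. Counting sites within 1000 bp as shared gave 10.2% and 10.1%. The stricter score left 123 shared and 1577 H3K79Hcy-only sites, 121 shared (5.15%) and 2228 KHcy-only sites, in 62, 510 and 840 genes with a shared, H3K79Hcy-only and KHcy-only site. It gave fold differences of 0.130 and 0.112 for the H3K79Hcy and KHcy sides and put 68.4% of H3K79Hcy-only sites on the 5 fullest chromosomes, which were 65.9% without chromosome 1. With no removal for H3K4me3, 1025 H3K79Hcy sites (13.9%) and 945 KHcy sites (12.9%) were shared in 301 genes, with fold differences of 0.424 and 0.330. The share of sites centred in exons, added after the data were seen, kept its order of shared, KHcy-only and H3K79Hcy-only sites except under the stricter score, where it was 4.88%, 5.97% and 3.93%.

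No paired analysis was possible because each antibody had 1 library, so the groups share fewer than 2 replicate numbers. Without replicates, or total reads per library, neither the depth nor the repeatability of a site is known. A site of one antibody that lacks a partner was not called in the other list, which does not show that the other antibody had no signal there.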
